A study of Rattus norvegicus with 4 samples.

Results

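A set of 5 genes tied to Schwann cells and myelin was followed in rat lens capsules after extracapsular clear lens extraction (ECLE), the surgery that empties the lens and leaves lens epithelial cells (LECs) on the capsule. They were *Sox10*, *Scn7a*, *Mbp*, *Pmp22* and *Emp1*. Every probe set (a group of array probes directed at a transcript) whose only gene symbol in the platform annotation was one of these names was taken. This gave 9 of 31042 probe sets, for 5 of the 14217 genes with a single symbol. The study asked which genes change as posterior capsule opacification (PCO) forms. There was 1 array on day 0, taken once surgery was completed in rats 7 weeks old. There were 2 arrays after 1 W (day 7, age 8 weeks), labeled as biological replicates 1 and 2, and 1 array after 2 W (day 14, age 9 weeks). All groups were female albino Sprague-Dawley rats that had ECLE in both eyes, so no array came from an eye without surgery. Each sample was the capsule with everything attached to it, labeled as LECs. The methods give more right-eye samples for every time point than there are arrays here, and do not say how many eyes or animals an array holds.

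Schwann cells are the glia of peripheral nerves, and in the eye they accompany the nerves of the cornea, iris and ciliary body. They wrap axons in myelin, a stack of membrane held together by proteins such as MBP and PMP22. SOX10 is the transcription factor that Schwann cells need at every stage, and melanocytes, which also come from the neural crest, depend on it too. The 5 genes are not private to nerve. *Emp1* and *Pmp22* belong to a family of tetraspan membrane proteins that many epithelia make, *Pmp22* is expressed outside nerve as well, and in mouse the *Mbp* gene also gives rise to Golli proteins that are found outside myelin.

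The annotated start regions of *Emp1*, *Pmp22* and *Scn7a* are shown because the first pair are relatives with very different array values and the last is the one of the 5 genes on which the 1 W replicates parted most. Sequences are from RefSeq, rat assembly GRCr8, and run from 250 bases before the annotated start to 50 bases after it, 5′ to 3′ on the strand of the gene. Of the 5 genes, *Scn7a*, *Pmp22*, *Mbp* and *Emp1* matched this table, *Mbp* with 2 windows.
Emp1 promoter, chr4:169943980-169944279, plus strand: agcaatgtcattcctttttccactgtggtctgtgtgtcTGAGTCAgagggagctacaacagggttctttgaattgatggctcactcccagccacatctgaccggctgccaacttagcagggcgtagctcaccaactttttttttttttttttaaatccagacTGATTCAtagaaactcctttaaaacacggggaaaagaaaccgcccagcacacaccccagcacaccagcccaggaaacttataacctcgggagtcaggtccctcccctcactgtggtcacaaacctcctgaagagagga
Pmp22 promoter, chr10:48294682-48294981, plus strand: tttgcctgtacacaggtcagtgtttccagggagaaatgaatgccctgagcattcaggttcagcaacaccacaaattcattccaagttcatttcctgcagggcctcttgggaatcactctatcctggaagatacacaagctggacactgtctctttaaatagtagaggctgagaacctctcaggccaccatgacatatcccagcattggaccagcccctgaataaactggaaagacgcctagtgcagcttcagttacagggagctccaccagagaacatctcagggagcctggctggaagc
Scn7a promoter, chr3:71846235-71846534, minus strand: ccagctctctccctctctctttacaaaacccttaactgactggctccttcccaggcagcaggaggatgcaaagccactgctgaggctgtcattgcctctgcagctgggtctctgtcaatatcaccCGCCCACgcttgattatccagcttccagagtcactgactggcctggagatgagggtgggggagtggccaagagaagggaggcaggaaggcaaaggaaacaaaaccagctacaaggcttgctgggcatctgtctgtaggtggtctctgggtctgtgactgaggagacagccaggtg
Capitals mark matches to a few motifs searched on both strands: ACAAAG and ACAATG for SOX factors, TGANTCA for AP-1 (the same letters on either strand, so a match counts once), GTGGGCG for EGR factors and TATAAA. The motifs were chosen with the array values known. The *Emp1* window held TGAGTCA at bases -212 to -206 and TGATTCA at -88 to -82 from the start, and 7.33% of 33469 rat promoter windows hold an AP-1 match. The *Scn7a* window held GTGGGCG on the opposite strand, at -125 to -119, a motif found in 7.12% of windows. The *Pmp22* window held none of these letters. SOX letters occur in 29.1% of all windows and TATAAA in 14.2%, and neither was in the 3 windows shown. One of the *Mbp* windows, not shown, held 3 SOX matches, at -240 to -235, -197 to -192 and -162 to -157. A match describes the sequence and is not a binding site.

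The array medians of intensity were 57 for day 0, 45.2 and 46.7 for the 1 W replicates and 31.9 for 2 W, so each array was divided by its own mean before ratios were taken. The beta-actin control's ratio of 3′ over 5′ signal, a sign of RNA integrity and labeling, was 2.32, 1.89, 1.90 and 1.61 in the same order. For the GAPDH control this ratio was 1.16, 1.12, 1.18 and 1.10, without a steady fall. Over the tested probe sets the log2 ratio to day 0 had a median of -0.08 for 1 W and -0.26 for 2 W, against which single values are read. Over 11 markers of lens epithelium the median log2 ratio was -0.16 and -0.34 for the 1 W replicates and -0.54 for 2 W. On the 2 W array 4 of the 11 were under 0.5-fold, as were 2086 of all 14217 genes. The summed scaled level of the 11 markers was 42040 on day 0, 41340 and 40720 after 1 W, and 41480 after 2 W. Bright genes such as *Cryaa*, *Cryab* and *Gja1* carried this sum. *Cdh1*, the epithelial cadherin, was at 0.493-fold and 0.422-fold of day 0 on the 1 W replicates and 0.270-fold on the 2 W array. The arrays come without detection calls, so an intensity below an array's 20th percentile (10.6 on day 0, 7.86 and 9.30 after 1 W, 6.99 after 2 W) is read as dim.

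Of the 5 genes, *Sox10* and *Emp1* were over 2.0-fold of day 0 on each of the 3 arrays after ECLE, a rule that 4.28% of all 14217 genes met, and *Mbp* was under 0.5-fold on each, as were 2.59% of all genes. *Scn7a* was above day 0 on 2 arrays and slightly below it on the other. *Pmp22*, by its brightest probe set, stayed within 0.676-fold to 1.12-fold of day 0. None of the 5 genes passed limma at an adjusted p of 0.05. The test's only residual degree of freedom is the gap between the 1 W replicates. It called 9 of 18625 tested probe sets higher after 1 W (0.0483%) and 0 lower (0%), and 9 higher after 2 W (0.0483%) and 0 lower (0%). For 2 W over 1 W it called 0 probe sets (0%), and before adjustment 1024 passed 0.05 upward and 3048 downward. For 1 W the same unadjusted counts were 1530 upward and 1800 downward, and for 2 W they were 1679 upward and 4071 downward. Dividing each array by its median raised these limma calls to 260 upward (1.40%) and 146 downward (0.784%) for 1 W, and to 948 upward (5.09%) and 683 downward (3.67%) for 2 W. Unscaled values gave 87 upward and 163 downward for 1 W, and 344 upward and 7630 downward for 2 W.

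**Figure D1:**
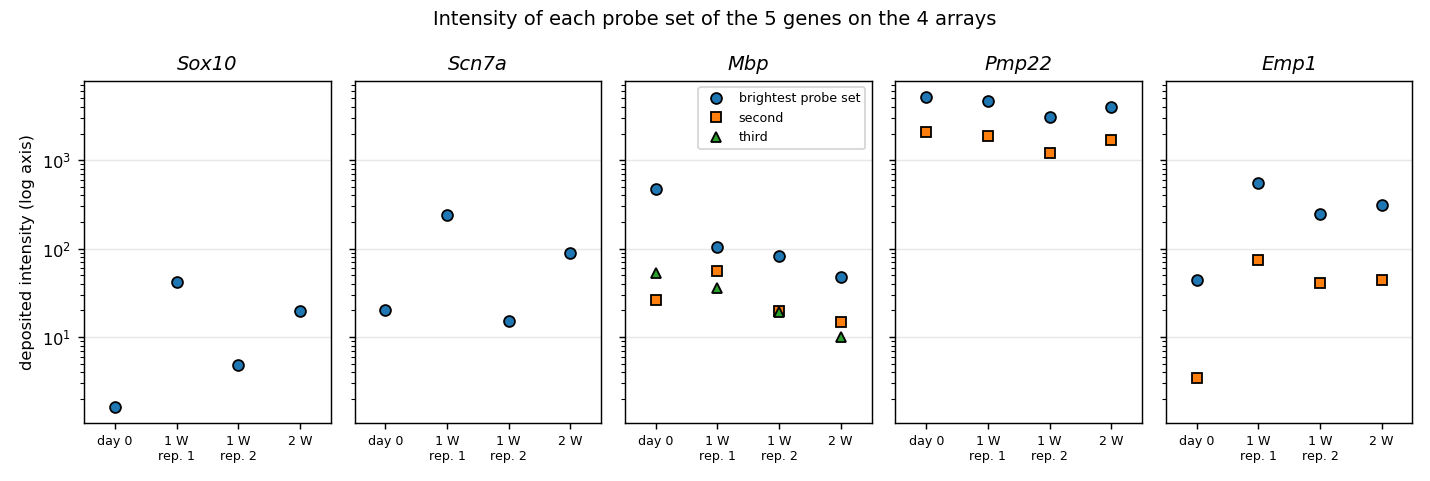
Deposited intensity (log axis) of each probe set of the 5 genes on the arrays of day 0, 1 W (replicates 1 and 2) and 2 W, with 1 point per array and a symbol per probe set, brightest first. *Emp1* lies above day 0 on every later array for both probe sets, the brightest *Mbp* probe set lies below day 0 on every later array, and *Sox10* and *Scn7a* dip on 1 W replicate 2.

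*Sox10*, which drives the Schwann cell and melanocyte programs, was near the bottom of the scale at day 0 and read higher after ECLE. Its single probe set read 1.61 on day 0, 42.4 and 4.80 on replicates 1 and 2 after 1 W, and 19.8 after 2 W. Both 1 W replicate 1 and 2 W stood above the dim range of their arrays, whereas day 0 and 1 W replicate 2 did not. After scaling, the fold over day 0 was 29.6 and 3.47 on replicates 1 and 2 after 1 W, and 18.3 after 2 W. The mean log2 ratio at 1 W was 3.34 ± 2.19 (SD, n = 2), and that of the single 2 W array was 4.19. The mean level fell short of the filter on dim probe sets, so *Sox10* was not tested in the main fit. In a limma fit with no filter its adjusted p was 0.438 after 1 W and 0.259 after 2 W. These folds rest on a dim day 0 value. With each array floored at its 20th percentile the log2 ratios were 1.10 after 1 W and 1.47 after 2 W, and *Sox10* no longer passed 2.0-fold on each array.

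*Scn7a* encodes Nax, a sodium channel relative that senses extracellular sodium and is found in glia, Schwann cells among them. Its probe set read 20.2 on day 0, 240 and 15.0 on replicates 1 and 2 after 1 W, and 89.0 after 2 W. Replicate 1 and the 2 W array were high, and replicate 2 was at the day 0 level. The fold over day 0 was 13.3 and 0.865 on the 1 W replicates and 6.52 after 2 W. In the limma fit the log2 ratio was 1.76 ± 1.71 after 1 W and 2.70 ± 1.97 after 2 W (SE), with adjusted p of 0.609 and 0.403. At 2 W over 1 W the log2 difference was 0.94 (limma adjusted p = 0.768). The gap between the 1 W replicates, 3.94 log2 units or 15.4-fold, was exceeded by 3 of 10455 tested genes (0.0287%). For *Sox10* the same gap was 3.09, or 8.53-fold. That ranking of the *Scn7a* gap leaves out genes below the filter, some with wider gaps, such as *Enpp6* (log2 ratios of 0.37 and 4.77). *Scn7a* itself was under the filter level of 25.2 on day 0 (17.3 after scaling) and replicate 2 (15.0). It passed the filter through replicate 1 and 2 W, so its rank among tested genes is not a measure of rarity. Without replicate 1 the *Scn7a* log2 ratio at 1 W was -0.21, and without replicate 2 it was 3.74. The study picked *Scn7a* and *Emp1* for a list of upregulated genes from these same arrays, so their height after ECLE is no independent evidence of direction.

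**Figure D2:**
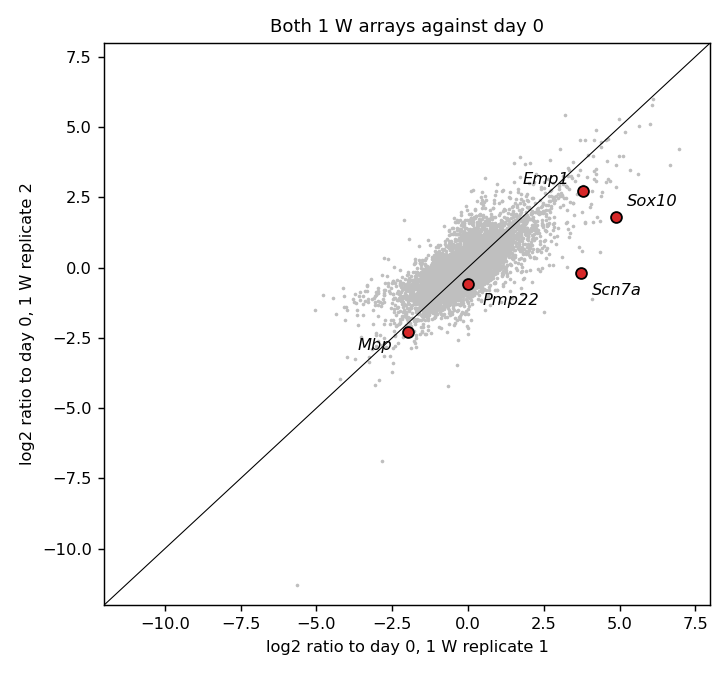
Log2 ratio to day 0 on 1 W replicate 2 (vertical axis) against 1 W replicate 1 (horizontal axis), with tested probe sets in grey and the brightest probe set of each of the 5 genes in red, *Sox10* among them although it lay below the filter. The line marks equal ratios. *Scn7a* (3.74 and -0.21) and *Sox10* (4.89 and 1.80) lie far below the line, and *Mbp* and *Pmp22* close to it.

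*Mbp*, the major cytoplasmic protein of compact myelin, was highest at day 0. Its brightest probe set read 469 on day 0, 105 and 82.3 on replicates 1 and 2 after 1 W, and 48.3 after 2 W. All arrays after ECLE lay far below day 0, and they lay closer to one another than to it. The fold over day 0 was 0.251 and 0.204 on the 1 W replicates and 0.153 after 2 W. The limma log2 ratio was -2.14 ± 0.24 after 1 W and -2.71 ± 0.27 after 2 W (SE), with adjusted p of 0.103 and 0.0553. With arrays divided by their median the adjusted p was 0.0162 and 0.0112, and over the alternatives it ran from 0.0162 to 0.295 after 1 W and from 0.00938 to 0.149 after 2 W. The other *Mbp* probe sets were dimmer and did not all follow. A second probe set read 25.9 on day 0, 55.5 and 19.8 after 1 W, and 14.8 after 2 W, with log2 ratios of 1.27, -0.17 and -0.24. It was above day 0 on replicate 1 alone. The third read 52.8 on day 0, 35.5 and 19.2 after 1 W, and 9.90 after 2 W, with log2 ratios of -0.40, -1.24 and -1.85, and was not tested. Averaged over all 3 probe sets the *Mbp* log2 ratio was -0.80 after 1 W and -1.60 after 2 W.

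Photoreceptor markers were also highest at day 0. Their summed scaled level over 8 genes was 11490 on day 0, 1154 and 4977 on replicates 1 and 2 after 1 W, and 1556 after 2 W. Photoreceptor genes were higher on replicate 2 than on replicate 1, whereas *Mbp* was not. Their part in the *Mbp* result was not tested. In whole capsules, fewer cells of a type and less RNA per cell cannot be told apart.

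*Pmp22*, a tetraspan protein of compact myelin that is also made outside nerve, was bright on every array and close to its day 0 level. Its brightest probe set read 5237 on day 0, 4688 and 3041 on replicates 1 and 2 after 1 W, and 3951 after 2 W. Replicate 2 was the lowest array. The limma log2 ratio was -0.28 ± 0.27 after 1 W and 0.16 ± 0.31 after 2 W (SE), with adjusted p of 0.605 and 0.752. The second probe set read 2075 on day 0, 1864 and 1192 after 1 W, and 1687 after 2 W, and its log2 ratios of 0.01, -0.58 and 0.27 followed the first. The sign at 2 W was not stable under scaling: the brightest probe set was at -0.25 after quantile normalization and at -0.41 with values as deposited. Without replicate 2 the 1 W value was 0.01 and without replicate 1 it was -0.57.

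*Emp1*, the epithelial relative of *Pmp22*, had the highest ratio to day 0 of the 4 tested genes on every array. Its brightest probe set read 44.4 on day 0, 555 and 249 on replicates 1 and 2 after 1 W, and 314 after 2 W. Every array after ECLE was well above day 0. The fold was 14.0 and 6.53 on the 1 W replicates and 10.5 after 2 W. The limma log2 ratio was 3.26 ± 0.50 after 1 W and 3.39 ± 0.58 after 2 W (SE), with adjusted p of 0.135 and 0.0664. With arrays divided by their median the adjusted p was 0.0152 and 0.0129, and over the alternatives it ran from 0.0152 to 0.306 after 1 W and from 0.0129 to 0.149 after 2 W. At 2 W over 1 W the log2 difference was 0.13 (limma adjusted p = 0.896). A second probe set read 3.41 on day 0, 73.5 and 40.9 after 1 W, and 44.4 after 2 W, with log2 ratios of 4.60, 3.80 and 4.27 and limma adjusted p of 0.117 and 0.0607. Its day 0 value was dim.

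All 8 genes listed for the *Pmp22* family were measured, and their median log2 ratio was 0.89 and 0.15 on replicates 1 and 2 after 1 W and 0.42 after 2 W. Over all genes the medians were -0.04, 0.01 and -0.16. *Emp1* and *Emp3* were over 2.0-fold on each array and no family gene was under 0.5-fold on each. *Emp3* read 103 on day 0, 398 and 358 after 1 W, and 196 after 2 W. Its limma log2 ratio was 2.07 ± 0.17 after 1 W and 1.49 ± 0.20 after 2 W (SE), with adjusted p of 0.0828 and 0.0577. The family members differed from one another. *Emp2* had log2 ratios of -0.04, -0.06 and -0.30, whereas *Lim2*, which encodes a lens fiber membrane protein, had 0.76, 0.37 and 1.56. *Perp*, a desmosome-linked protein, had 1.02, 1.30 and 0.34, and *Tmem47* had -0.08, -0.30 and 0.51. *Nkg7*, best known from cytotoxic lymphocytes, was below the filter and parted between the replicates (2.80 and -0.42). *Emp2*, *Lim2*, *Perp*, *Tmem47* and *Nkg7* are named as the remaining measured genes of the family.

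**Figure D3:**
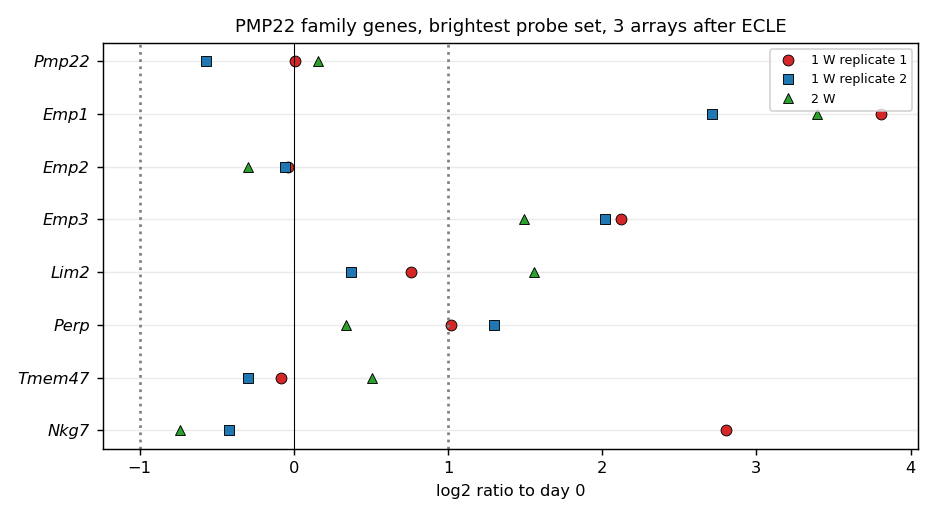
On the horizontal axis, log2 ratio to day 0 for the brightest probe set of the 8 *Pmp22* family genes on 1 W replicates 1 and 2 and on the 2 W array, 1 point per array. Dotted lines mark 2.0-fold and 0.5-fold. Only *Emp1* (2.71 to 3.81) and *Emp3* (1.49 to 2.12) lie beyond the upper line on all 3 arrays, and *Pmp22* lies close to 0.

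The wider myelin lists held 1 or 2 genes past the fold rule each, against 4.28% over and 2.59% under among all genes. Of 15 listed compact myelin proteins 13 were measured, with median log2 ratios of 0.01 and 0.46 on replicates 1 and 2 after 1 W and -0.24 after 2 W. *Pmp2*, a fatty acid carrier of peripheral myelin, was over 2.0-fold on each array but below the filter, at 1.30 on day 0, 8.33 and 12.9 after 1 W, and 6.46 after 2 W. *Mbp* was under 0.5-fold on each array, so 1 of 13 was over (7.69%) and 1 under (7.69%). Limma called 0 of the 10 that were bright enough to test. Of 12 listed enzymes and membrane proteins that build myelin 10 were measured, with medians of 0.51, 1.07 and 0.17. *Gal3st1*, which makes the myelin lipid sulfatide, passed 2.0-fold on each array at intensities of 7.01 on day 0, 16.7 and 15.6 after 1 W, and 21.1 after 2 W. All 10 transcription factors listed for myelination were measured, and *Sox10* alone passed 2.0-fold on each array (10%, medians 0.13, 0.22 and -0.15). *Egr2*, the factor that switches on myelin genes together with SOX10, read 16.7 on day 0, 32.0 and 19.9 after 1 W, and 25.9 after 2 W. *Egr2* was below the filter and was chosen after its values were seen. Its log2 ratios were 1.10, 0.47 and 1.19, whereas a dimmer *Egr2* probe set had 0.70, 0.41 and -0.95.

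Repair Schwann cells are the state that follows nerve injury. Of 17 listed genes of immature and repair Schwann cells 15 were measured, with medians of -0.05, -0.04 and 0.08, and 1 was over 2.0-fold (6.67%) and 1 under 0.5-fold (6.67%) on each array. *Igfbp2*, an IGF binding protein, was at 650 on day 0, 2553 and 1557 after 1 W, and 1780 after 2 W (limma adjusted p of 0.142 and 0.0671). *Ncam1*, a cell adhesion molecule that the lens epithelium also makes, was at 755 on day 0, 206 and 275 after 1 W, and 122 after 2 W (limma adjusted p of 0.145 and 0.0589). *Igfbp2* was over 2.0-fold and *Ncam1*, by its brightest probe set, under 0.5-fold on each array, and these list members pointed opposite ways. A dimmer *Ncam1* probe set had log2 ratios of -1.02, -1.13 and -0.36, so it did not pass the fold rule at 2 W. Another had -1.89, -1.40 and -1.93.

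The glial genes that mark the Schwann lineage, 11 measured of 17 listed, had medians of 0.25 and -0.21 after 1 W and 0.88 after 2 W. *Sox10* and *Matn2*, a matrix protein, passed 2.0-fold on each array. *Matn2* read 61.0 on day 0, 339 and 151 after 1 W, and 89.4 after 2 W, with limma adjusted p of 0.195 and 0.275. *S100b*, a calcium-binding protein of Schwann cells, was chosen after its values were seen. It read 48.7 on day 0, 222 and 64.0 after 1 W, and 105 after 2 W, so replicate 2 again stood near day 0 (limma adjusted p of 0.383 and 0.277). *Erbb3*, the neuregulin receptor on which Schwann cells depend, did not share that order, at 15.8 on day 0, 15.2 and 28.6 after 1 W, and 19.6 after 2 W. It was also chosen after its values were seen.

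*Sox10*, *Scn7a* and *Emp1* had the same order of arrays, with 1 W replicate 1 highest, then 2 W, then 1 W replicate 2. The order was read from these genes and was shared by 1323 of all 14217 genes (9.31%). Of the other Schwann lineage genes measured, *S100b* shared it, as did *Fabp7* and *Kcna1*, which were dim on every array, and *Mia*, which was below day 0 on every array. It was also found in 7 of 9 measured melanocyte markers (77.8%). Their summed scaled level was 2373 on day 0, 14230 and 5146 on replicates 1 and 2 after 1 W, and 7865 after 2 W. *Dct*, a melanin synthesis enzyme that SOX10 controls, read 455 on day 0, 5446 and 1553 after 1 W, and 2152 after 2 W. *Mlana* read 51.0, 733, 196 and 316, and *Tyr*, the tyrosinase gene, 85.7, 544, 156 and 200, in the same order. *Dct*, *Tyr* and *Mlana* were over 2.0-fold on each array, with limma adjusted p of 0.208, 0.296 and 0.205 after 1 W and 0.130, 0.250 and 0.118 after 2 W. Their part in the *Sox10* and *Scn7a* values was not tested. *Sox10* is shared by both lineages, so its level does not separate them. On day 0 *Dct* (455) and *Tyr* (85.7) were well above the dim range while *Sox10* was within it. Which cells made the listed melanocyte markers was not tested.

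**Figure D4:**
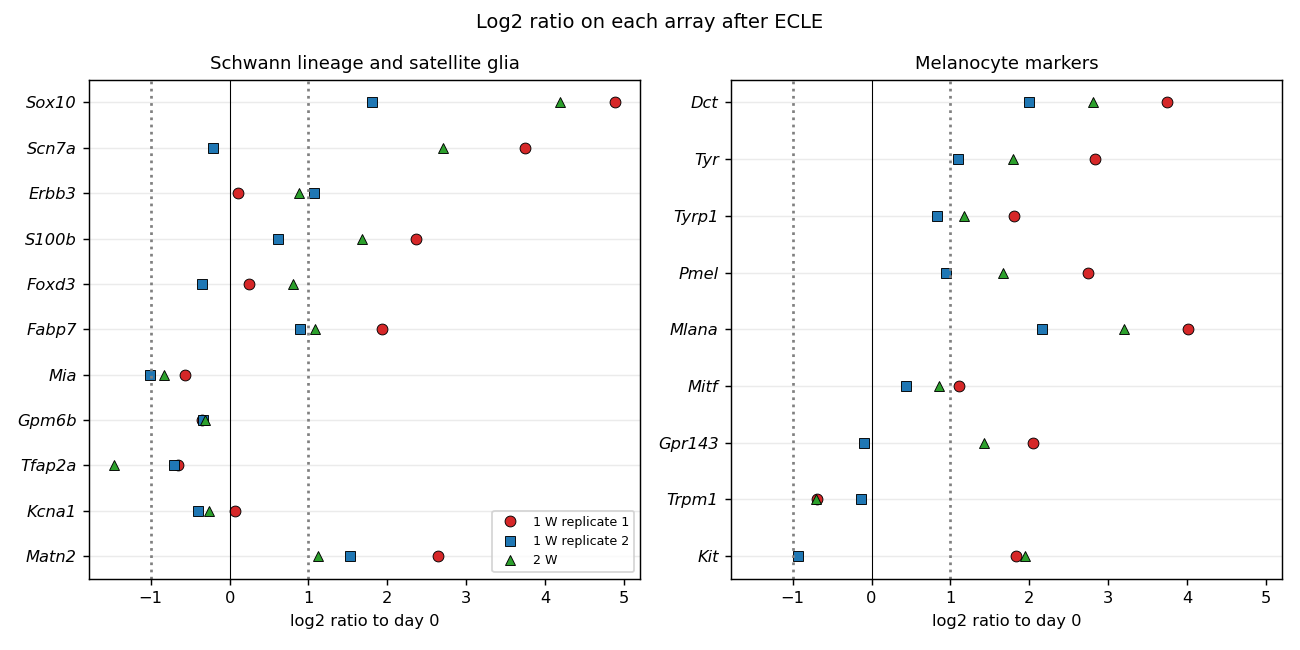
On the horizontal axis, log2 ratio to day 0 for the brightest probe set of each measured Schwann lineage gene (left panel) and melanocyte marker (right panel) on 1 W replicates 1 and 2 and on the 2 W array. Dotted lines mark 2.0-fold and 0.5-fold. *Sox10*, *Scn7a* and *S100b* on the left and *Dct*, *Tyr* and *Mlana* on the right share one order, with replicate 1 highest and replicate 2 lowest.

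Other cell types that make some of these genes were read from their own lists. Axon and neuron markers had medians of -0.51 and -0.55 after 1 W and 0.01 at 2 W over 12 genes. *Nefh*, the heavy neurofilament subunit, alone passed 2.0-fold on each array, at 146 on day 0, 410 and 369 after 1 W, and 2258 after 2 W. It was called by limma after 2 W, at a log2 ratio of 4.52 ± 0.17 (SE, adjusted p = 0.0405). With quantile normalization or without an intensity trend limma called 0 probe sets after 2 W (lowest adjusted p of 0.0566 and 0.149), so this call was lost. Of 11 measured oligodendrocyte markers, the brightest probe sets of *Cldn11*, *Ermn* and *Tspan2* passed 2.0-fold on each array (27.3%, against 4.28% of all genes). The list medians were 2.01, 1.39 and 1.04, but only 3 of the 11 were bright enough to test. *Cldn11*, a tight junction protein, read 14.4 on day 0, 71.5 and 49.6 after 1 W, and 114 after 2 W (limma adjusted p of 0.141 and 0.0574). *Tspan2* read 26.6, 100, 59.9 and 43.8 and *Ermn* 2.86, 10.3, 6.78 and 3.98, in the same order. *Ermn* was dim on every array but 1 W replicate 1. A dimmer *Cldn11* probe set had log2 ratios of 0.65, -0.15 and 1.60. Other *Ermn* probe sets had -0.36, 0.23 and 0.47, and 0.21, -0.44 and 1.93, so these did not pass the fold rule. Nerve sheath fibroblast markers had medians of 0.11, 0.26 and 0.40 over 9 genes. *Dcn* and *Lum*, which fibroblasts of many tissues make, were over 2.0-fold on each array (22.2%, against 4.28% of all genes). *Pdgfra* was under 0.5-fold on each (11.1%, against 2.59% of all genes). *Dcn* ran in the order of *Sox10*, with log2 ratios of 6.68 and 3.66 after 1 W and 6.50 after 2 W. Macrophage markers had medians of 2.39, 1.71 and 1.43, and 5 of 8 were over 2.0-fold on each array (62.5%, against 4.28% of all genes). The summed scaled level of these markers was 367, 2865, 2138 and 1545 over the 4 arrays. *Lyz2*, a lysozyme of macrophages, had limma adjusted p of 0.0828 and 0.0553. Their part in the *Emp1* result, whose closest genes include *Cd74*, was not tested. Of 10 lens fiber markers, 3 and 4 were under 0.5-fold on the 1 W replicates, among them *Crygc* (-2.94 and -4.02 on the log2 scale) and *Bfsp1* (-1.73 and -2.49). On the 2 W array 7 of the 10 were over 2.0-fold. Of all 14217 genes, 1440 and 1066 were under 0.5-fold on the 1 W replicates and 1705 were over 2.0-fold on the 2 W array. *Cryab*, *Cryaa*, *Gja1*, *Crygc*, *Bfsp1*, *Fabp7*, *Kcna1* and *Mia* were chosen after their values were seen. None of 7 Müller glia and astrocyte markers passed the fold rule in either direction.

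Signals to and around Schwann cells were all measured (15 of 15), with medians of 0.16, 0.37 and 0.14. *Igf1*, a growth factor for Schwann cells and many others, read 64.4 on day 0, 1194 and 322 after 1 W, and 1133 after 2 W, with limma adjusted p of 0.184 and 0.0743. *Lama4*, a laminin chain of the nerve and vessel basement membrane, read 32.1, 93.0, 75.02 and 66.4 in the same order, with adjusted p of 0.148 and 0.0769 in limma. Both were over 2.0-fold on each array by their brightest probe sets. A dimmer *Lama4* probe set, not tested, had log2 ratios of 1.61, -1.13 and 0.06. Limma called 0 of the 12 listed genes that were bright enough to test, and with median scaling 1 after 1 W and 3 after 2 W. Median scaling called 406 of all 18625 tested probe sets after 1 W and 1631 after 2 W.

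Most other sodium channel genes were below the filter. Of 14 listed subunits 12 were measured and 2 were bright enough to test, and the list medians were -0.23, -0.67 and 0.22. *Scn4a*, the muscle channel, was over 2.0-fold on each array at intensities of 1.03 on day 0, 2.38 and 3.76 after 1 W, and 10.96 after 2 W. *Scn2a*, a channel of central axons, was under 0.5-fold on each at 8.99, 0.256, 3.49 and 1.31. All of these *Scn2a* values and all *Scn4a* values but that of 2 W were dim, so their folds are not read as a change. *Scn2b*, the other tested subunit gene, had log2 ratios of -0.31, -0.57 and -0.31 and was chosen after its values were seen, as was *Sox2*. Of *Sox10*'s relatives in the SoxE and SoxB1 groups, 4 of 6 listed genes were measured, and *Sox10* alone passed 2.0-fold on each array. *Sox2*, a lens epithelium and repair Schwann cell factor, read 1248 on day 0, 558 and 494 after 1 W, and 412 after 2 W, with limma adjusted p of 0.119 and 0.0646. Its log2 ratios were -0.99, -1.12 and -1.03. A dimmer tested *Sox2* probe set had -1.11, -0.93 and -1.07, and another had -0.87, -0.47 and -0.20.

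For each of the 5 genes, the 3 genes with the closest log2 ratios over the 3 arrays after ECLE were found, by the root mean square difference in log2 units. *Scn7a* was closest to *Cnn1* (0.50), *Myh11* (0.594) and *Inmt* (0.660), of which *Cnn1* and *Myh11* encode smooth muscle contractile proteins. *Sox10* was closest to *Igf1* (0.598), *Mylk* (0.687) and *Bgn* (0.759). *Mbp* was closest to *Sostdc1* (0.158), *Slc7a8* (0.184) and *Ly75* (0.200). *Emp1* was closest to *Cd74* (0.302), *Aebp1* (0.314) and *RT1-Db1* (0.345), and *Pmp22* to *Col6a2* (0.030), *Ess2* (0.040) and *Ttll7* (0.043). *Myh11* read 57.1 on day 0, 649 and 81.1 after 1 W, and 187 after 2 W, so, like *Scn7a*, it was high on replicate 1 and near day 0 on replicate 2. The ratios compared share 1 day 0 array.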

How the data were processed

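The authors hybridized labeled RNA to Affymetrix 3′ arrays, used Affymetrix Expression Console (named in the submitters' processing notes) and deposited 1 linear intensity per probe set (31099 in all). The sources used here do not give the summary algorithm, whether the deposited values are already scaled, or the eyes per array, so p-values measure only the spread between samples labeled as biological replicates. There were 0 columns of no sample. From these intensities, 57 control probe sets were left out, each array was divided by its mean, which the methods name, beside control values, as a divisor for per chip normalization, and log2 was taken. The limits of the fold rule (over 2.0 or under 0.5) come from the methods, and requiring them on each array after ECLE was added here. The brighter probe sets (18625, from the 40th percentile of mean log2 level up) entered limma 3.58.1 (R 4.3.3; lmFit, eBayes with trend, 3 groups, 1 residual and 3.12 prior degrees of freedom, Benjamini-Hochberg, two-sided, threshold 0.05), which assumes that the single arrays vary like those at 1 W. Tables used Python 3.11.15 and pandas 2.3.3. A gene is its brightest probe set by mean log2 level. On simulated arrays, with 50 probe sets for each size of change, limma called 0 at a log2 change of 2 and 30 at 4 for 1 W, and 1 and 25 for 2 W. The simulated spread followed the average squared gap of the 1 W replicates and was then varied further by probe set. The simulated arrays may therefore be noisier than the real ones, and these counts are not read as limma's power here.

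The genes, lists, rules and motifs were chosen with earlier results of these data known. Named are the 5 genes with every probe set, list genes past the fold rule (at most 4 in each direction) or otherwise a list's 2 brightest, called list genes, and for each of the 5 genes its 3 closest. Alternatives were other scalings (median, 75th percentile, quantile, none), filters (none, 60th percentile), a floor at the 20th percentile, limma without trend or robust, 1 group after ECLE, the mean over probe sets, and each 1 W replicate left out.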

Additional observations from a re-analysis of the deposited data

Results flagged for a closer look

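Flagged here are 6 named genes whose 2 W ratio was opposite in sign to both 1 W arrays. In each case the difference between times was read from the arrays and was not tested as such. The lens fiber markers *Crygc* and *Bfsp1* also changed sign, and by more. *Crygc* had a log2 ratio of 1.84 at 2 W, against -2.94 and -4.02 at 1 W. *Bfsp1* had 3.22, against -1.73 and -2.49. The log2 ratio at 2 W was -0.59 for *Cnp*, a myelin-linked enzyme, against 0.27 and 0.71 on replicates 1 and 2 at 1 W. A dimmer *Cnp* probe set was at 0.28, against 0.10 and 0.47, and did not change sign. It was -0.39 for *Gfap* (0.13 and 0.19 at 1 W) and -0.19 for *Glul* (0.01 and 0.62 at 1 W), both glial genes. It was 0.51 for *Tmem47* of the *Pmp22* family (-0.08 and -0.30 at 1 W). Among the genes closest to *Pmp22*, it was 0.13 for *Ess2* (-0.04 and -0.60 at 1 W) and 0.18 for *Ttll7* (-0.06 and -0.59 at 1 W). *Cnp* and *Gfap* were added to the genes examined after their values were seen. Groups of 1 or 2 arrays are too small to test an array as an outlier.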

How the results depend on the processing

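The counts of probe sets called by limma moved most. At 1 W the count was 9, against 406 with arrays divided by their median, 250 with values as deposited, 0 without an intensity trend and 4 with all arrays after ECLE as 1 group. At 2 W it was 9, against 1631 with median scaling, 399 with 75th percentile scaling, 7974 with values as deposited, 0 with quantile normalization, 0 without a trend, 5 with a 60th percentile filter and 5 with a floor at the 20th percentile. For 2 W over 1 W it was 0, against 209 with median scaling and 4421 with values as deposited.

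*Mbp* and *Emp1* passed limma's threshold under some scalings. At 1 W *Mbp* was at -2.02 with median scaling (adjusted p = 0.0162) and -2.34 as deposited (0.0369), and at 2 W at -2.44 with median scaling (0.0112), -2.40 with the 75th percentile (0.0486) and -3.28 as deposited (0.00938). Averaged over its probe sets *Mbp* was at -0.80 and -1.60. *Emp1* was at 3.38 with median scaling at 1 W (adjusted p = 0.0152), and at 2 W at 3.66 with median scaling (0.0129) and 2.82 as deposited (0.0172). *Pmp22* at 2 W changed sign with quantile normalization (-0.25) and as deposited (-0.41). The floor brought *Sox10* to 1.10 at 1 W and 1.47 at 2 W and took it out of the genes past 2.0-fold on each array.

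Leaving out either 1 W replicate gave 1 W log2 ratios from -0.21 to 3.74 for *Scn7a*, from -0.57 to 0.01 for *Pmp22*, from -2.29 to -1.99 for *Mbp*, from 1.80 to 4.89 for *Sox10* and from 2.71 to 3.81 for *Emp1*. With 1 array a group no residual degree of freedom is left for limma, and counts without a replicate were not run. No paired analysis was possible because day 0 and 2 W have 1 array each. Of the alternative values, 120 kept their direction and side of the threshold or their size. The causes were not tested. Without detection calls, the background under dim probe sets is unknown, and the *Sox10* ratios are the least certain.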

Other observations

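The following genes were picked after their values were seen. *Ngfr*, the low-affinity neurotrophin receptor of repair Schwann cells, nerve sheath cells and other cells, stood out after 2 W. It read 153 on day 0, 201 and 108 on replicates 1 and 2 after 1 W, and 620 after 2 W, with limma adjusted p of 0.876 after 1 W and 0.0685 after 2 W. *Mobp*, an oligodendrocyte myelin gene, also peaked after 2 W, at 3.06 on day 0, 13.0 and 3.91 after 1 W, and 92.8 after 2 W, below the filter for testing. *Enpp6*, a lipid phosphodiesterase of new oligodendrocytes, was instead highest on 1 W replicate 2, at 5.09 on day 0, 5.86 and 120 after 1 W, and 30.7 after 2 W. *Prx*, a myelin protein that the lens also makes, read 439 on day 0, 605 and 496 after 1 W, and 562 after 2 W, with limma adjusted p of 0.256 and 0.0795.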
